A study of Mus musculus with 2 samples.

Results

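The 10 genes described here encode secreted antimicrobial and acute-phase proteins: the serum amyloid A genes *Saa1*, *Saa2* and *Saa3*, the protease inhibitor *Slpi*, the iron-sequestering proteins *Lcn2* and *Ltf*, the peptidoglycan recognition proteins *Pglyrp3* and *Pglyrp4*, the C-type lectin *Reg3g* and the cathelicidin *Camp*. They were taken by gene symbol from the probes of 2 expression arrays, and 11 of the 39429 probes, or 10 of the 30133 genes, belonged to them. The genes were chosen from measured values, namely the difference between the same 2 arrays that is described below, so their differences are a description and carry no test.

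The arrays compared skin of newborn C57BL/6N mice at postnatal day 0. *Pnpla1*-/- pups came from crosses of heterozygotes and were homozygous for a disrupted allele that is not limited to a cell type, and *Pnpla1*+/+ littermates served as controls. RNA from 6 animals was pooled for each genotype and hybridised to 1 array, so that neither the spread between pups nor a test between genotypes could be had, and each value below stands for 1 pool. Intensities were read in 1 colour (Cy3), both arrays lay on the same slide, and the intensities at the 75th percentile were 2108 in *Pnpla1*+/+ and 1734 in *Pnpla1*-/- skin. *Pnpla1* itself, an enzyme gene of differentiated keratinocytes, had an intensity of 579 ± 58.2 on the *Pnpla1*+/+ array and of 114 ± 12.6 on the other, which is -2.07 on the log2 scale, and even the lower of these values was marked by the scanner software as well above background. Here and below, an intensity is followed by the error that the scanner software gave its spot, and a difference is the log2 of the intensity divided by the array's 75th percentile, *Pnpla1*-/- minus *Pnpla1*+/+.

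The epidermis defends itself with proteins that keratinocytes secrete between and onto the cornified cells, and with proteins that neutrophils carry in their granules and release on arrival. Cathelicidin and Reg3 lectins damage bacterial membranes, peptidoglycan recognition proteins bind the bacterial cell wall, lipocalin 2 and lactoferrin keep iron from microbes, and secretory leukocyte protease inhibitor restrains neutrophil elastase and cathepsin G. Serum amyloid A proteins are the classical acute-phase proteins of mouse plasma, made chiefly by liver and, for Saa3, also by macrophages, fat cells and epithelia.

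The probes that read the serum amyloid A and peptidoglycan recognition genes are shown first, because these genes belong to families with close relatives. Each probe is 60 bases long, is given 5' to 3' in the sense of the mRNA, and is located on mouse build mm9 as the scanner files give it. Those printed lie in the coding sequence. The stop codon is in capitals where the probe reaches it, and such a probe is printed up to that codon.
*Saa3* (chr7:53970389-53970448, minus strand): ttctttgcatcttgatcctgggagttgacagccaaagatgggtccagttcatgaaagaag
*Saa1* (chr7:53996070-53996129, minus strand): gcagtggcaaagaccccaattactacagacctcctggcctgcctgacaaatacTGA
*Pglyrp4* (chr3:90539505-90539564, plus strand): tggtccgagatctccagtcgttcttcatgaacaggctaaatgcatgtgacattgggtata
*Pglyrp3* (chr3:91835441-91835500, plus strand): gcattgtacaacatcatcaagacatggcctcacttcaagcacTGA
No probe of the 10 genes shared a run of more than 14 bases with the probe of another gene on the array. Whether a probe also captured the RNA of a relative was not tested.

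The 3 serum amyloid A genes were all far brighter on the *Pnpla1*-/- array. *Saa3*, which is also made outside the liver, read 66.7 ± 9.39 in *Pnpla1*+/+ and 14713 ± 1471 in *Pnpla1*-/- skin. Its difference was 8.07 (error 0.25), or 268-fold. As processed here it was the largest of the 10 genes and ranked 11 among the 22374 genes that had a difference or a bound. *Saa2* read 235.2 ± 24.2 in *Pnpla1*+/+ and 11347 ± 1135 in *Pnpla1*-/- skin at its probe at chr7:54009622-54009681 (plus strand). The difference of *Saa2* was 5.87 (error 0.21), or 58.7-fold. *Saa1* read 548 ± 55.1 and 15947 ± 1595, a difference of 5.14 (error 0.20), or 35.4-fold. *Saa1* and *Saa2* encode the main acute-phase isoforms of plasma, and each is listed in the reference table as an older symbol of the other, so older annotations may exchange their names. All 3 probes were well above background on both arrays, and the error bars of the genotypes did not overlap.

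*Slpi*, the inhibitor of neutrophil serine proteases, read 243.5 ± 24.8 in *Pnpla1*+/+ and 45044 ± 4504 in *Pnpla1*-/- skin (chr2:164179849-164179908, minus strand). The difference was 7.81 (error 0.21), or 225-fold, rank 12 among all genes with a difference or a bound and next to *Saa3* in that order. The gap between *Saa3* and *Slpi* was 0.25 (error 0.32), so that their order is not settled.

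Of the iron-sequestering proteins, *Lcn2*, which captures bacterial siderophores, read 528 ± 53.2 in *Pnpla1*+/+ and 11382 ± 1138 in *Pnpla1*-/- skin (chr2:32240199-32240258, minus strand), a difference of 4.71 (error 0.20), or 26.2-fold. *Ltf*, which encodes lactoferrin and binds iron itself, read 116 ± 13.0 and 957 ± 95.9 (chr9:110942873-110942932, plus strand), a difference of 3.33 (error 0.22), or 10.02-fold. Both were higher in *Pnpla1*-/- skin, by more than the errors of their spots.

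The peptidoglycan recognition proteins 3 and 4 are epithelial members of a family that kills bacteria by binding their wall. *Pglyrp4* read 53.8 ± 7.28 in *Pnpla1*+/+ and 789.8 ± 79.1 in *Pnpla1*-/- skin, a difference of 4.16 (error 0.24), or 17.9-fold. *Pglyrp3* read 67.9 ± 8.49 and 422 ± 42.5, a difference of 2.92 (error 0.23), or 7.55-fold. *Pglyrp3* had the smallest measured difference of the genes at least 2-fold higher, although *Reg3g*, which has only a bound, was lower with normexp. The neutrophil granule member of the family, *Pglyrp1*, had a difference of 3.02. *Pglyrp2*, an amidase known chiefly from liver, had a bound of 0.54 at its brightest probe, which was well above background only in *Pnpla1*-/- skin. Its other probe also gave a bound, of 1.52.

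*Reg3g*, a lectin that acts on Gram-positive bacteria, was the 1 gene of the 10 without a measurable level in *Pnpla1*+/+ skin. Its probe (chr6:78416420-78416479, minus strand) read 16.1 ± 6.72 there, not well above background, and 284.5 ± 29.1 in *Pnpla1*-/- skin. Against the lowest signal well above background on the *Pnpla1*+/+ array, 23.9, this was at least 14.5-fold higher, a bound of 3.85. The bound rests on the deposited background subtraction, since normexp, a background correction with an offset of 50, gave 2.05. Of the other *Reg* genes, *Reg1* reached a bound of 3.20 and *Reg3b* a bound of 1.65, *Reg3d* differed by 0.21, and *Reg2*, *Reg3a* and *Reg4* were well above background on neither array.

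*Camp*, the only cathelicidin gene of the mouse, did not follow the other 9 genes. The first of its 2 probes (chr9:109749911-109749970, minus strand) read 2828 ± 283 in *Pnpla1*+/+ and 2642 ± 264 in *Pnpla1*-/- skin, and the second (chr9:109749901-109749950, minus strand) read 1259 ± 126 and 1175 ± 118. Both gave a difference of 0.18 (error 0.20), which is within the error and which turned to -0.10 without scaling and to -0.24 when the arrays were centred on the spike-in probes. The probes share 50 bases apart from 2 positions, counted from the 5' end of the first probe, at which the second carries A16G and T20C. Bases 11 to 40 of the first probe and the same stretch of the second are shown with these positions in capitals, because both versions gave the same difference.
*Camp*, first probe: cagccAgagTagtaggcctgccttggcctg
*Camp*, second probe: cagccGgagCagtaggcctgccttggcctg
*Camp* ranked 7561 of 22374 by its difference.

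**Figure D1:**
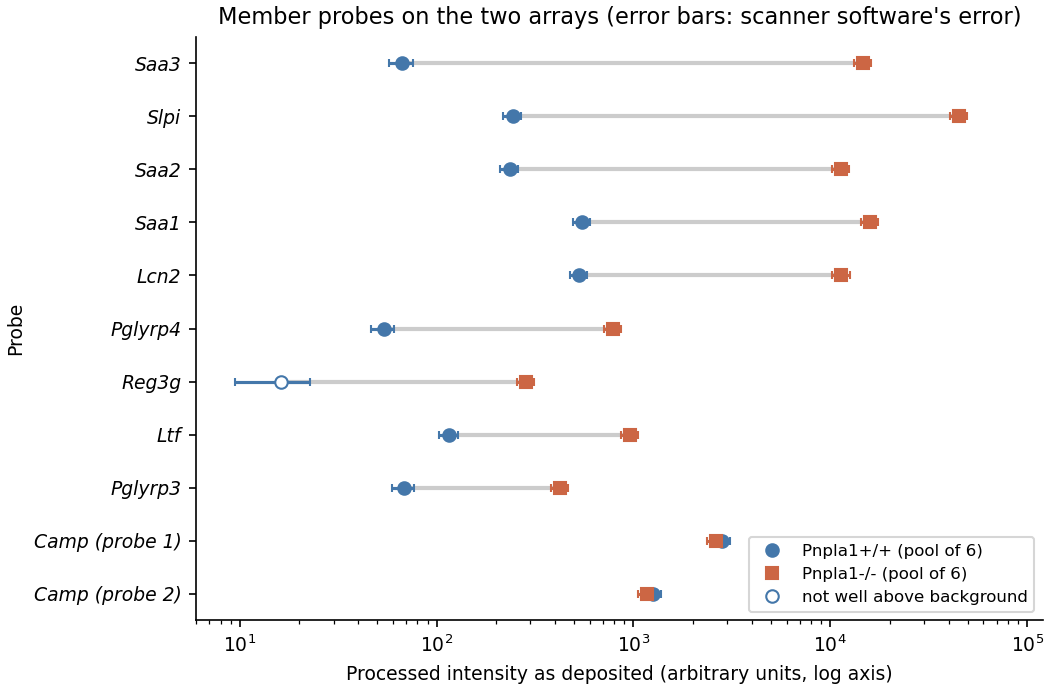
Processed intensity of each probe of the 10 genes on the *Pnpla1*+/+ array (circles) and the *Pnpla1*-/- array (squares), log axis, with the error that the scanner software gave each spot; each array held RNA pooled from 6 animals. The 2 symbols lie far apart for 9 genes, from 67.9 and 422 for *Pglyrp3* to 66.7 and 14713 for *Saa3*, and touch at both *Camp* probes; the open circle marks *Reg3g*, not well above background at 16.1.

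Counted together, 9 of the 10 genes were at least 2-fold higher in *Pnpla1*-/- skin and 0 at least 2-fold lower, beside 6.7% of all genes higher and 3.04% lower (1499 and 681 of 22374). Since the genes were chosen on this difference, nothing is read from that contrast. Their median difference was 4.44 with *Reg3g* at its bound, and the median of all genes was 0.003. The differences spanned 7.88 on the log2 scale from *Camp* to *Saa3*, 6 genes exceeded 16-fold, and 7 ranked within the first 100 genes. In order, *Saa3* and *Slpi* stood at the top, followed by *Saa2*, *Saa1*, *Lcn2*, *Pglyrp4*, *Ltf* and *Pglyrp3*. *Slpi* and *Saa2* lay 1.94 apart (error 0.29), and from *Saa2* down to *Pglyrp3* the gaps between neighbours ran from 0.41 (error 0.32) between *Ltf* and *Pglyrp3* to 0.83 (error 0.33) between *Pglyrp4* and *Ltf*. *Pglyrp3* and *Camp* lay 2.73 apart (error 0.31). *Reg3g*, known only as a bound, has no fixed place, and the errors are those of single spots, which leave out the spread between pups.

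**Figure D2:**
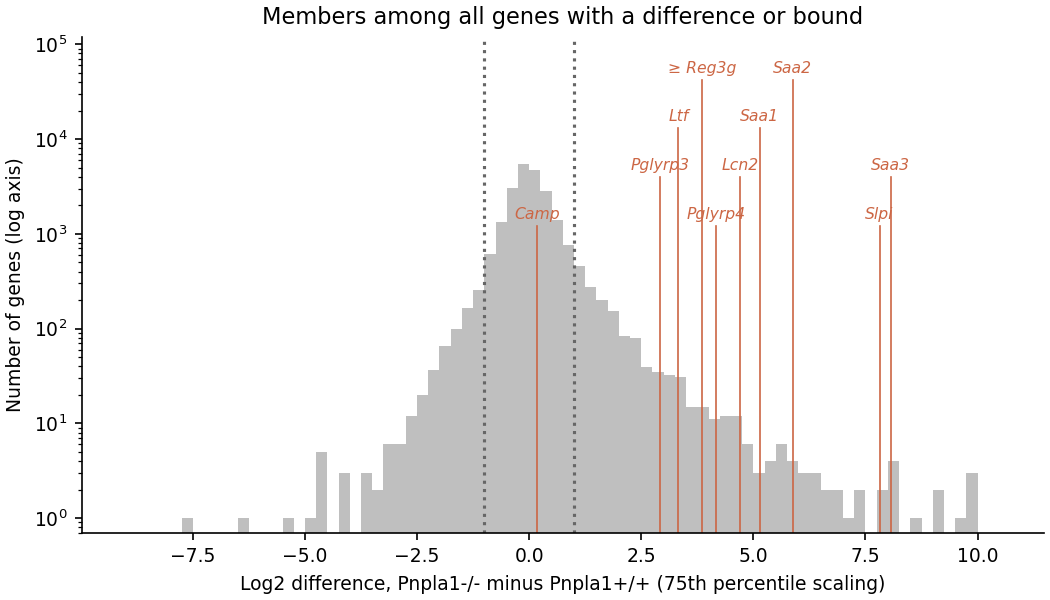
Number of genes (log axis) by log2 difference, *Pnpla1*-/- minus *Pnpla1*+/+, in bins of 0.25 for the 22374 genes with a difference or bound, with the 10 genes marked by vertical lines and the 2-fold limits by dotted lines. *Camp* sits in the bulk of all genes at 0.18, whereas the other 9 lie between 2.92 and 8.07 in the sparse upper tail, with *Reg3g* placed at its bound of 3.85.

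The scaling of the arrays moved all differences together. Without scaling the median of all genes shifted by -0.28, and centring on 8 probes for control RNA added to the samples (spike-in) shifted it by -0.43. With these settings 41.2% and 27.8% of the genes that differed at least 2-fold were higher in *Pnpla1*-/- skin, against 68.8% as scaled here. The 9 genes stayed at least 2-fold higher under every one of the 13 alternatives except that *Reg3g* has no value when probes with a bound are left out. A background correction with an offset of 50 lowered the dimmest genes most, *Saa3* to 6.95, *Pglyrp4* to 3.19, *Ltf* to 2.77, *Pglyrp3* to 2.16 and *Reg3g* to 2.05.

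**Figure D3:**
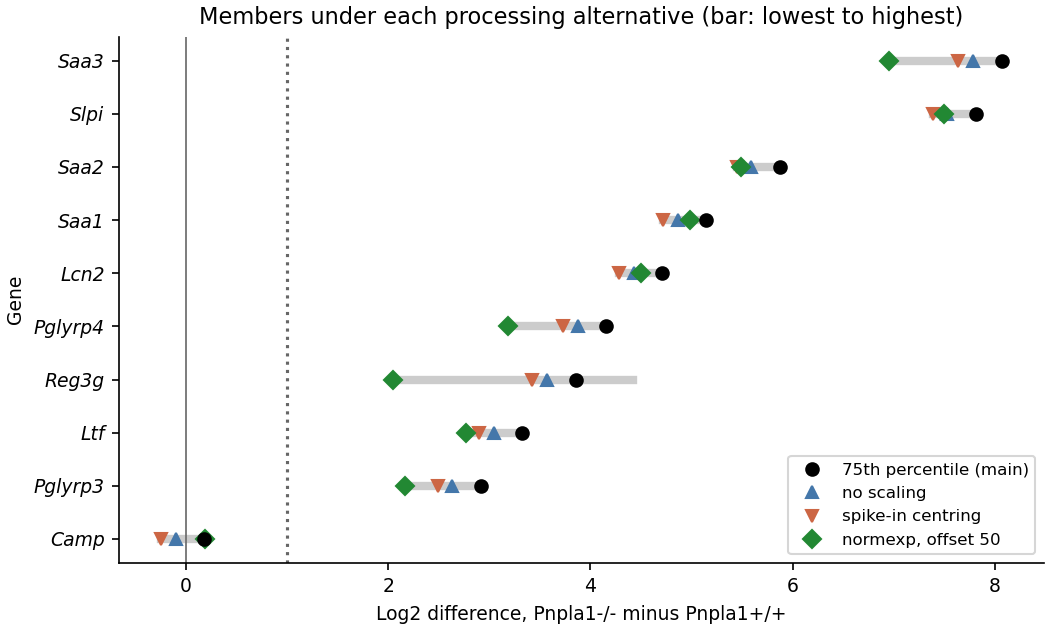
Log2 difference, *Pnpla1*-/- minus *Pnpla1*+/+, of each of the 10 genes under every processing alternative that changes a difference; grey bars run from the lowest to the highest value, and symbols mark scaling to the 75th percentile, no scaling, spike-in centring and normexp background correction. The bars of 9 genes lie right of the dotted 2-fold line, the lowest end being 2.05 for *Reg3g*, and the bar of *Camp* crosses 0 from -0.24 to 0.19.

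Sequence upstream of the start site was at hand for 8 of the 10 genes in a RefSeq table of mouse promoters (build GRCm38.p6), that is for all but *Pglyrp3* and *Pglyrp4*. The 250 bases before the start were searched on both strands for 4 motifs of factors known to act on acute-phase genes. These were C/EBP (TTNNGNAA), STAT (TTCNNNGAA), AP-1 (TGANTCA) and the kappaB motif by name. The C/EBP motif was present in 6 of 8 promoters, those of *Saa1*, *Saa2*, *Saa3*, *Slpi*, *Lcn2* and *Ltf*, against 36.8% of all 32851 promoters in the table. The kappaB motif was present in 1 of 8, *Reg3g*, where the same bases matched on both strands, against 7.25% of all. STAT and AP-1 motifs were found in 0 of 8, against 7.02% and 6.75%. These letters say nothing of whether a factor bound there.

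Some of these stretches are shown, 5' to 3' on the strand of the gene and ending at the base before the start, with matches in capitals (kappaB in *Reg3g*, C/EBP elsewhere). They are the genes with the largest differences, the *Reg3g* promoter with its kappaB match, and *Camp*, in which none of the 4 motifs was found.
Saa3 (chr7:46715677-46715926, minus strand): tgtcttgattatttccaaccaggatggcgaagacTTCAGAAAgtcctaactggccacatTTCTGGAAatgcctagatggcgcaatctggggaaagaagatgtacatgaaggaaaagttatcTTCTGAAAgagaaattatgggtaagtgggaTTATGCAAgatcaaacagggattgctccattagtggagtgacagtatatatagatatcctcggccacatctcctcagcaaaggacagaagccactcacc
Slpi (chr2:164356508-164356757, minus strand): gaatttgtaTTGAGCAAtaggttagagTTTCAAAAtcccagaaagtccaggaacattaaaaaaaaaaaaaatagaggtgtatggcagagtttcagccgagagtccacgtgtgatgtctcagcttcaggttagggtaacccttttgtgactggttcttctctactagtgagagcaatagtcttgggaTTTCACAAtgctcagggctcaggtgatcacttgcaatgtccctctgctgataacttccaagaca
Saa2 (chr7:46751583-46751832, plus strand): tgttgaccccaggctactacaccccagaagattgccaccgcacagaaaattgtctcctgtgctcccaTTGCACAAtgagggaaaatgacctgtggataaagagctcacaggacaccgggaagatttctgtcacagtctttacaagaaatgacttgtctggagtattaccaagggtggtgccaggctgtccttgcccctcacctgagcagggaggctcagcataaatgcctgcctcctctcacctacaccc
Saa1 (chr7:46742981-46743230, minus strand): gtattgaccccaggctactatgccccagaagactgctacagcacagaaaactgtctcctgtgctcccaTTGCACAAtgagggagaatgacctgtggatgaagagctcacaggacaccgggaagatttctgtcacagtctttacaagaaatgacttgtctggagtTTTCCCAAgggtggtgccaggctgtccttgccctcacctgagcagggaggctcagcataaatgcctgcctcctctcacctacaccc
Reg3g (chr6:78468875-78469124, minus strand): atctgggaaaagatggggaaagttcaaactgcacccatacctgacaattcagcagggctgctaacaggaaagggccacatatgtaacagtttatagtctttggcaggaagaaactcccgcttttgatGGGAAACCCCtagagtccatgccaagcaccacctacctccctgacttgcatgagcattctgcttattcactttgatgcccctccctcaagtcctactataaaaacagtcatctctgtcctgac
Camp (chr9:109849457-109849706, minus strand): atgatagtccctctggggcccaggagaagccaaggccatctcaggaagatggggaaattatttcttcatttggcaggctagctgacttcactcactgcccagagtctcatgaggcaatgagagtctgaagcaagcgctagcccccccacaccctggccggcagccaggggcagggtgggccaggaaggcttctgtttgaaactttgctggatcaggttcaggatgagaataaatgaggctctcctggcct
*Saa3* had 4 C/EBP matches, starting at -216, -191, -129 and -99 from the start site, *Slpi* had 3, *Saa1* and *Ltf* 2 each, and *Saa2* and *Lcn2* 1 each. The upstream stretches of *Saa1* and *Saa2* were identical at 238 positions with 11 mismatches and 2 gaps (94.8%), and their differences lay 0.73 apart. The stretch of *Saa3* was 48.5% identical to that of *Saa1* and 47.8% to that of *Saa2*.

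The neighbours of the 10 genes were examined next, 5 protein-coding genes to each side in the order of the reference table, a comparison chosen after the values were seen. Of 74 neighbours that are not among the 10 genes, 55 had a difference or bound, 5 of them (9.09%) were at least 2-fold higher and 1 lower, with a median of 0.05. Among all genes 6.7% were higher and 3.04% lower, so the share among neighbours was close to that of all genes. In the serum amyloid A cluster, *Saa4*, the constitutive isoform that lies between *Saa3* and *Saa1*, was well above background on neither array, at 7.60 and 14.5. Of the flanking genes, *Saal1* differed by -0.41, *Hps5* by -0.12 and *Tph1* by 0.84. The higher neighbours were *S100a8* (6.26), *S100a9* (4.67) and *S100a7a* (bound 3.85) beside *Pglyrp4*, all S100 proteins with antimicrobial action, and *Reg1* and *Reg3b* beside *Reg3g*. *Rbpjl*, close to *Slpi*, was the lower neighbour at -1.51, and 0 of the 7 neighbours of *Camp* with a value differed 2-fold.

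**Figure D4:**
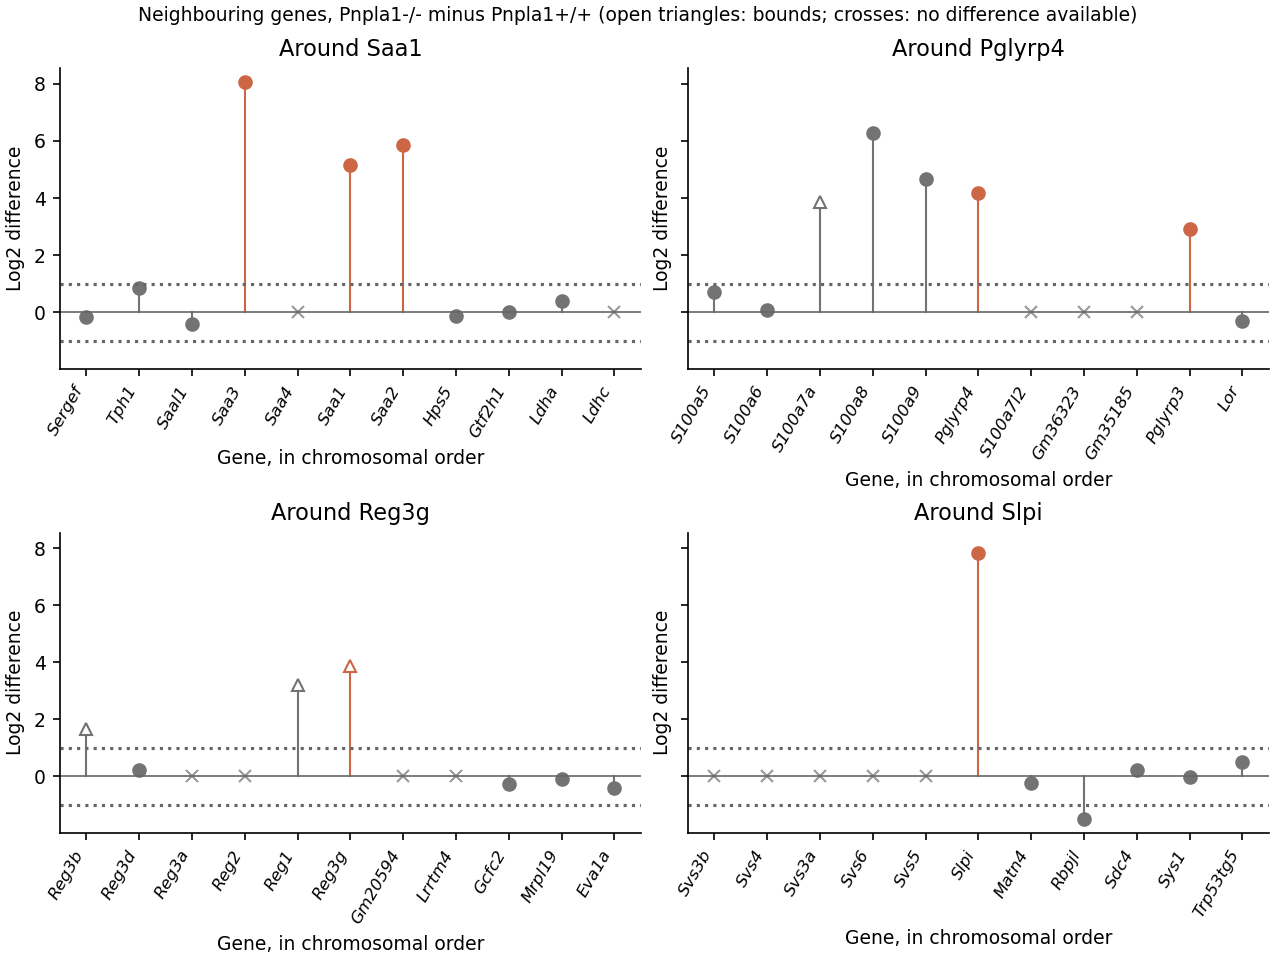
Log2 difference, *Pnpla1*-/- minus *Pnpla1*+/+, of the protein-coding genes on either side of *Saa1*, *Pglyrp4*, *Reg3g* and *Slpi* in chromosomal order; the 10 genes are in colour, open triangles are bounds, crosses are genes with no difference available and dotted lines mark 2-fold. *Saa3*, *Saa1* and *Saa2* stand above flanking genes that lie between -0.41 (*Saal1*) and 0.84 (*Tph1*), *S100a8* at 6.26 and *S100a9* at 4.67 stand beside *Pglyrp4*, and *Slpi* at 7.81 has no neighbour that is at least 2-fold higher.

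Further secreted antimicrobial genes were listed for comparison, from general knowledge. The counts of this and the following lists stand beside the 6.7% of all genes that were at least 2-fold higher and the 3.04% that were lower, and the medians beside 0.003 for all genes. Of 36, 25 had a difference or bound, and 12 were at least 2-fold higher and 0 lower, with a median of 0.74. A further 10 were measured within 2-fold, and 3 had a bound under 2-fold. The largest were *S100a8* (6.26), *Lpo* (5.68) and *S100a9* (4.67). *S100a8* and *S100a9* form calprotectin, which withholds zinc and manganese, and *Lpo* encodes lactoperoxidase. *S100a8* read 2930 in *Pnpla1*+/+ and 185092 in *Pnpla1*-/- skin, and *Lpo* read 161 and 6792.

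Of 24 other acute-phase genes, 18 had a difference or bound, of which 8 were at least 2-fold higher and 2 lower (6.7% and 3.04% among all genes), with a median of 0.60. A further 7 were measured within 2-fold, and 1 had a bound under 2-fold. *Cfb*, complement factor B of the alternative pathway, read 743.7 in *Pnpla1*+/+ and 5969 in *Pnpla1*-/- skin (3.29). *Itih4*, an inter-alpha-trypsin inhibitor heavy chain, read 234 and 1867 (3.28), and *Cp*, the copper-carrying ferroxidase ceruloplasmin, 1072 and 4399 (2.32). *Pzp*, a broad protease inhibitor of the macroglobulin family, and *Fgg*, the fibrinogen gamma chain, were lower, with bounds of -1.86 and -1.24. With normexp 0 of the list were at least 2-fold lower, and without genes that have only a bound the count was also 0 and the median 1.53. *Crp*, *Apcs*, *Hamp*, *Fgb*, *A2m* and *Saa4* were well above background on neither array. *Orm1* and *Orm2*, the acid glycoproteins of liver, both differed by -0.11.

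Receptors, partners and processing proteases of these proteins were covered by 29 genes, of which 27 had a difference or bound, 10 were at least 2-fold higher and 1 lower (6.7% and 3.04% among all genes), with a median of 0.54. *Nod2*, a sensor of peptidoglycan fragments, differed by 3.59, *Fpr2*, a receptor for serum amyloid A and for cathelicidin peptides, by 3.26, and *Mmp9*, whose product pairs with lipocalin 2 in neutrophils, by at least 2.52. *Cubn*, an endocytic receptor, was lower at -1.11, and with normexp 0 of the list were at least 2-fold lower. The kallikreins *Klk5* and *Klk7*, which cut cathelicidin into its peptides in skin and are named here after their values were seen, differed by -0.31 and 1.05. Without scaling 5 of the 29 were at least 2-fold higher, beside 4.47% of all genes. The median of the list was 0.26 without scaling and 0.12 with spike-in centring.

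Among 24 upstream cytokines and their receptors, all with a difference or bound, 9 were at least 2-fold higher and 0 lower (6.7% and 3.04% among all genes), with a median of 0.88. *Il17c*, an epithelial cytokine of the interleukin 17 family, was not well above background in *Pnpla1*+/+ skin (16.5) and read 402 in *Pnpla1*-/- skin, at least 20.4-fold higher. *Il1f6*, which encodes interleukin 36 alpha, differed by 4.04 and *Il1a* by 3.76. The lymphocyte cytokines *Il17a*, *Il17f* and *Il22*, are named after their values were seen. *Il17f* and *Il22* differed by 0.71 and 0.93, from intensities of 36.6 and 56.0 in *Pnpla1*+/+ skin. *Il17a* was well above background only in *Pnpla1*-/- skin, at 28.5, and gave a bound of 0.53, which leaves the size of its difference unknown. Of 24 transcription and feedback factors, 15 were at least 2-fold higher and 1 lower, with a median of 1.21, and with spike-in centring 7 were higher, beside 3.74% of all genes. *Zc3h12a*, an RNase that degrades inflammatory mRNAs, differed by 3.91, *Elf3*, an epithelial ETS factor, by 3.40, and *Bcl3*, an IkappaB family protein, by 3.04, whereas *Fos* was lower at -1.01.

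**Figure D5:**
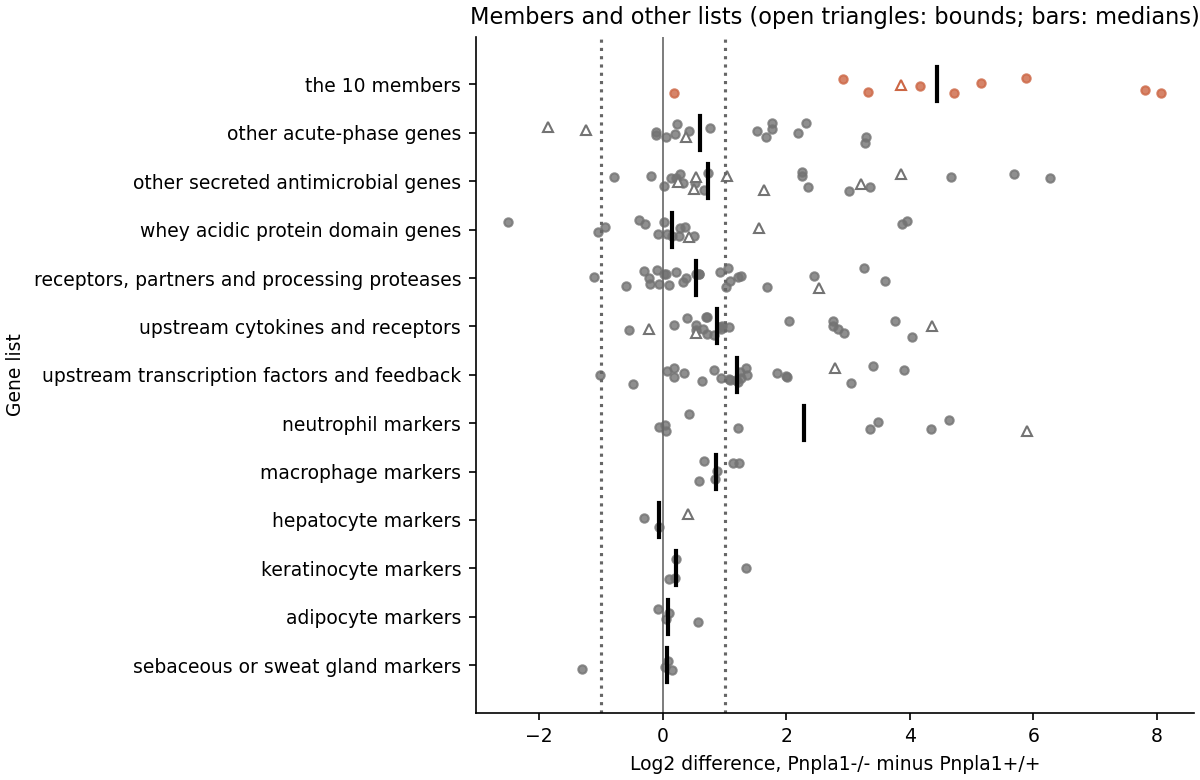
Log2 difference, *Pnpla1*-/- minus *Pnpla1*+/+, of every gene with a value in the 10 genes described and in 12 further lists; each point is a gene, open triangles are bounds, black bars are medians and dotted lines mark 2-fold. The median is 4.44 for the 10 genes, 2.29 for neutrophil markers and 1.21 for transcription and feedback factors (without bounds 4.71, 1.21 and 1.19, with other acute-phase genes at 1.53), and the keratinocyte, adipocyte and gland lists lie near 0 at 0.21, 0.08 and 0.06.

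Several of the 10 proteins are also made by cells other than keratinocytes, so markers of these cells were read on the same arrays. In RNA from whole tissue, more cells of a type and more RNA per cell cannot be told apart. Of 10 neutrophil markers, all with a value, 6 were at least 2-fold higher and 0 lower (6.7% and 3.04% among all genes), with a median of 2.29. That median was 1.497 with normexp and 1.21 without *Cxcr2*, which has only a bound. *Cxcr2*, the chemokine receptor of neutrophils, went from not well above background (16.0) to 1177, a bound of 5.90, *Mmp8*, the neutrophil collagenase, differed by 4.63, and *Mpo*, myeloperoxidase, by 4.35, with 1.87 at another of its probes. Their levels divided by the 75th percentile summed to 43.9 in *Pnpla1*+/+ and 48.4 in *Pnpla1*-/- skin. Most of this came from the brightest, *Csf3r*, at 0.04, which read 89901 in *Pnpla1*+/+ and 76226 in *Pnpla1*-/- skin. *Mpo* read 32.25 and 541, and whether the *Csf3r* probe read neutrophil RNA was not tested. Without *Csf3r* the sums were 1.28 and 4.43. *Ly6g*, also in the list, differed by 0.42. Of the granule protease genes, *Prtn3* differed by 1.21, *Elane* by 0.05 and *Ctsg* by -0.06. *Ltf*, *Lcn2*, *Camp* and *Pglyrp1* are known as neutrophil granule genes, *Elane*, *Ctsg*, *Prtn3* and *Ngp* also stand in the lists above, and the part of neutrophils in the differences of the 10 genes was not tested.

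Of 6 macrophage markers, all with a value, 2 were at least 2-fold higher (*Adgre1* 1.24, *Cd163* 1.13) and 0 lower, beside 6.7% and 3.04% of all genes, with a median of 0.86 and sums of 13.1 and 22.4. Without scaling 0 of the 6 reached 2-fold. The brightest, *Csf1r*, differed by 0.67, and the part of macrophages in the result was not tested. Of 6 hepatocyte markers, 3 had a value, with a median of -0.06. That median was -0.34 without scaling, -0.61 with spike-in centring and 0.26 with no filter on dim probes. *Apoa1*, *Ttr* and *Fgb* were well above background on neither array, *Alb* read 131 and 88.0 (-0.30), the brightest, *Apoa2*, differed by -0.06, and *Ahsg* was well above background only in *Pnpla1*-/- skin, with a bound of 0.41. The 6 markers summed to 1.23 and 1.18, and the part of liver RNA in the result was not tested.

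The samples are labelled as skin, whereas the description of the series also speaks of epidermis, and markers of both epidermis and fat were present. All 4 keratinocyte markers were well above background on both arrays, with sums of 386 and 471, a median of 0.21 and *Krt14* at 1.35, while the brightest, *Krt10*, differed by 0.20. Of 5 adipocyte markers, 4 were well above background, with sums of 79.8 and 95.3, a median of 0.08 and the brightest, *Fabp4*, at 0.10, and *Lep* was not well above background. The 4 sebaceous or sweat gland markers had a median of 0.06, with sums of 3.97 and 4.16 and the brightest, *Plin2*, at 0.08. *Aqp5*, the water channel of sweat glands, differed by -1.30, with a bound of -2.60 at its other probe. With normexp 0 of the gland markers were at least 2-fold lower. The keratinocyte, adipocyte and gland medians lay below 0 without scaling and with spike-in centring, the first and second of them also with quantile normalisation, and that of the glands also with scaling to the median of each array.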

How the data were processed

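Total RNA (200 ng per array) pooled from 6 newborn mice per genotype was labelled with Cy3 and hybridised to Agilent mouse 4x44K arrays, 1 per genotype. The authors processed the scans with Feature Extraction 11.5.1.1. They deposited per spot the processed intensity after background subtraction, its error, and flags for spots well above background, saturated or outlying. The authors also deposited a table of ratios, the same intensity divided by 1 factor per array, used as an alternative. The number of arrays limits the precision.

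Differences were computed in Python 3.11.15 (numpy 2.4.6, pandas 2.3.3) from 43020 non-control spots per array. Spots flagged as outlying on either array were left out of both (138 were flagged in *Pnpla1*+/+, 82 in *Pnpla1*-/-), and 0 were saturated. Intensities were divided by each array's 75th percentile and taken to log2, repeated spots were averaged, and a gene was read from its brightest probe. Well above background were 71.7% of the *Pnpla1*+/+ and 73.3% of the *Pnpla1*-/- spots. Of 30133 genes, 20680 were measured on both arrays and 1694 gave a bound, taken against the dim probe's signal or, if higher, the lowest detected signal of that array. The remaining 7759 gave no difference. The median SD of probes with at least 8 spots was 0.05 and 0.06 on the arrays, and 0.08 for a difference (305 probes). Calculations were tested on simulated data with changes only in moderately bright genes, so changes of dim genes and bounds were not covered. Normexp used limma 3.58.1 under R 4.3.3, and quantile normalisation was computed in Python.

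Of 39429 probes, 27508 were named by accession, 3544 by symbol and 404 by older symbol through a RefSeq table (GRCm38.p6), and 7973 kept the name in the files. Probe coordinates are on mm9 and promoters on GRCm38.p6.

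The genes, the 12 lists and the motifs were chosen with earlier results of these data known. From each list the 3 largest higher and 3 largest lower genes of at least 2-fold were named, and for cell markers also the brightest gene and those not well above background. Other genes were named after their values were seen.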

Additional observations from a re-analysis of the deposited data

How the results depend on the processing

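Over 13 alternatives the count of the 10 genes at least 2-fold higher was 9, or 8 where probes with a bound were left out, since *Reg3g* then has no value. Their median difference of 4.44 became 4.15 without scaling, 4.01 with spike-in centring, 3.84 with normexp, 4.71 without probes that have only a bound and 4.57 with no filter on dim probes. Of all genes with a difference or bound, 6.7% were at least 2-fold higher and 3.04% lower. These shares became 4.47% and 6.37% without scaling (998 and 1424 genes), 3.74% and 9.69% with spike-in centring (829 and 2150), 4.34% and 1.45% with normexp (960 and 321), 10.1% and 3.67% with no filter on dim probes (3041 higher), 13.8% and 9.35% at 1.5-fold (3092 and 2092), and 3.06% and 1.02% at 3-fold (684 and 228). The difference of *Camp* was above 0 in 9 of 11 alternatives and below 0 without scaling (-0.10) and with spike-in centring (-0.24). The 8 spike-in probes differed by 0.30 to 0.49, with a mean of 0.43, after scaling to the 75th percentile, so spike-in centring lowered every difference by that mean, by construction. The median of the whey acidic protein list also turned below 0 in these settings and with quantile normalisation (-0.02). The genes that normexp moved most were those dim in *Pnpla1*+/+ skin, where the signal over background limits the size of a difference. No paired analysis was possible because each genotype has 1 array. The slide could not enter a fit, because both arrays share it.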

Other observations

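*Slpi* carries the whey acidic protein domain, and 23 further genes with that domain were read on the same arrays. Of these 17 had a difference or bound, 3 were at least 2-fold higher and 2 lower, with a median of 0.15, beside 6.7% of all genes higher and 3.04% lower. With normexp 2 were higher and 1 lower. A further 11 were measured within 2-fold, and 1, *Wap*, had a bound of 0.42 and a bound of 0.91 at its other probe. *Wfdc17*, known from activated macrophages, read 345 in *Pnpla1*+/+ and 4404 in *Pnpla1*-/- skin (3.96). *Wfdc12* read 261 and 3138 (3.87), and *Wfdc16* reached a bound of 1.56. The brightest gene of the list went the other way: *Wfdc21* read 19355 in *Pnpla1*+/+ and 2806 in *Pnpla1*-/- skin, a difference of -2.50, and *Wfdc6a* differed by -1.05.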
